A study of Mus musculus with 14 samples.

Results

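The SLAM family of immune receptors and its adaptor SAP were followed as 8 genes, Slamf1, Slamf6, Slamf7, Cd84, Cd48, Ly9, Cd244 and Sh2d1a, in sorted mouse spleen CD4 T cells. The members were taken by gene symbol from a count table of 26683 symbols. All 8 were in it, and all 8 were among the 13427 genes with counts high enough to test. The 8-month-old female mice were B6.NZM-Sle1NZM2410/AegSle2NZM2410/AegSle3NZM2410/Aeg/LmoJ, the lupus-prone triple congenic called TC, which carries the NZM2410 intervals Sle1, Sle2 and Sle3 together on a B6 background, and C57BL/6J, called B6. From each spleen, follicular helper T cells (Tfh; CD4+, CD44+, CD162 low or negative, PD-1+) and naive T cells (Tn; CD4+, CD44-) were sorted. The groups were 3 TC Tfh, 4 B6 Tfh, 3 TC Tn and 4 B6 Tn libraries, from 3 TC and 4 B6 mice. Every TC mouse carries all 3 intervals, so their effects cannot be told apart, nor can strain and disease state at this age. The gates did not set regulatory T cells aside.

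SLAM receptors are immunoglobulin-superfamily proteins on lymphocytes and other blood cells, and most of them bind the same receptor on a neighbouring cell. CD48 and 2B4 (Cd244) instead bind each other. Tyrosine motifs in the cytoplasmic tails of most of these receptors recruit small SH2 adaptors, of which SAP, encoded by Sh2d1a, is the one of T cells. SAP links the receptors to the kinase Fyn, and mice without it form few stable contacts between T and B cells and few germinal centres. The receptor genes lie in a cluster on chromosome 1 inside the lupus sublocus Sle1b, where B6 and the donor of Sle1 carry different haplotypes.

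In the GENCODE annotation of GRCm38, the build also named mm10, the 7 receptor genes ran from position 171559193 to 171953170 of chromosome 1, a span of 394 kb. Their order was Cd244 (annotated as Cd244a), Ly9, Slamf7, Cd48, Slamf1, Cd84 and Slamf6, with Ly9 and Slamf7 on the minus strand and the others on the plus strand. Sh2d1a lay on chromosome X from 42502453 to 42529330, outside the Sle intervals. Ly9 lies whole within the annotated span of Cd244, on the other strand, over 18787 bp. That is an overlap of whole gene spans, and shared exons were not measured. The strand setting of the counting is not given in the sources used here. How reads from this stretch were assigned can therefore not be checked, and the values of Cd244 are uncertain. Few Ly9 reads can have been counted as Cd244 in B6 Tfh, where libraries held 4096 to 4945 counts of Ly9 and 1 to 8 of Cd244.

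Library totals ran from 15162309 to 20191558 counts. Levels are given in CPM, the count of a gene for every 1000000 counts in its library. At these totals, 3 counts, taken as the floor, correspond to 0.149 to 0.198 CPM. Means carry the SD over the 3 TC or 4 B6 libraries of a group. Fold changes and adjusted p-values came from edgeR's quasi-likelihood test with TMM scaling and Benjamini-Hochberg adjustment over all genes tested, and a gene was called at an adjusted p below 0.05. Markers of the sorted populations matched their names. The summed CPM of 6 Tfh markers was 2036 to 2403 in TC Tfh and 2365 to 2691 in B6 Tfh, against 109 to 122 in TC Tn and 93.4 to 119 in B6 Tn. Pdcd1, in that sum, encodes the sort marker PD-1, so its level was set in part by the gate. It averaged 494 CPM in TC Tfh and 688 CPM in B6 Tfh. Il21, also in the sum, passed the filter on low counts only through Tfh libraries. Cxcr5, Bcl6, Icos and Tox2 were not in the gate and were also called higher in Tfh in both strains. Dixon's test for outlying libraries was run only on the B6 groups of 4, where no library stood apart in the level of a member. The TC groups of 3 were not tested. Among them a library could lie away from the others, as for Slamf6 in TC Tfh (998, 996 and 1234 CPM). Cd84 in TC Tn was another case (240.4, 241 and 258 CPM).

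**Figure D1:**
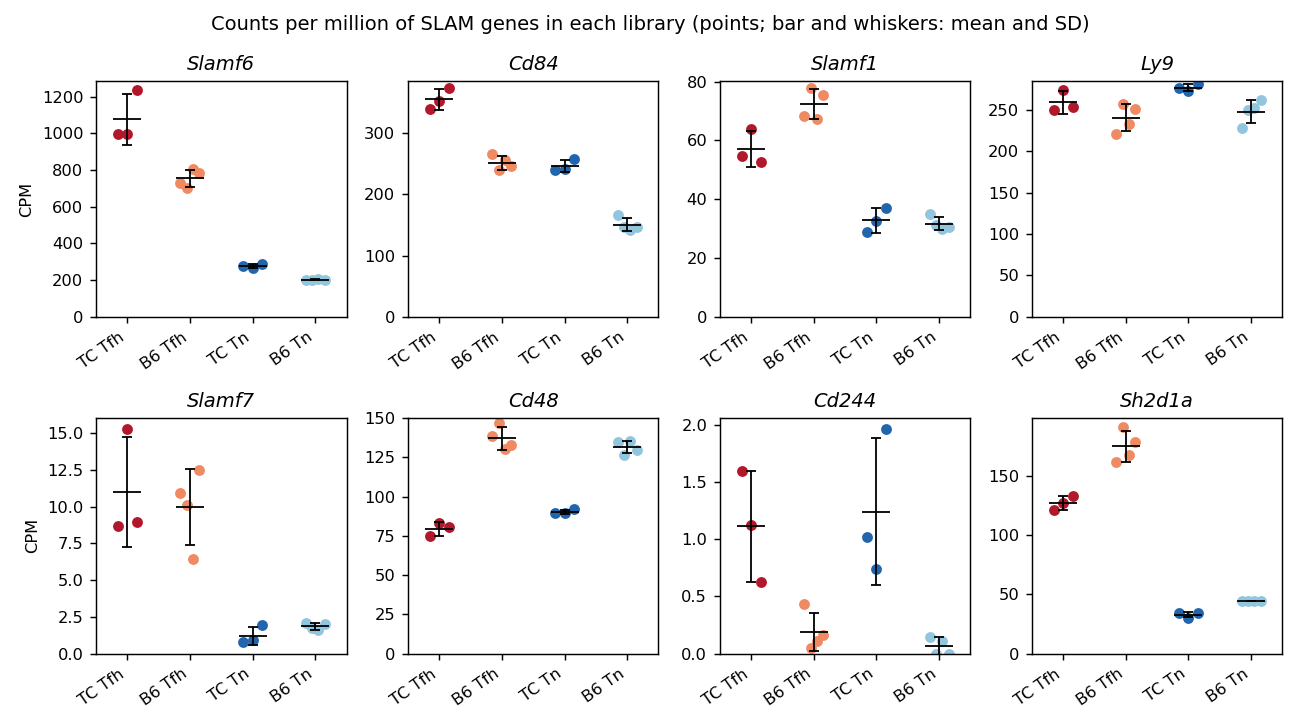
Level of each SLAM gene in CPM (y axes, linear from 0) in the 14 libraries by group (x axes); points are libraries, and bars with whiskers are means and SD over 3 TC or 4 B6 libraries. Slamf6 and Cd84 were highest in TC Tfh and Slamf1 and Sh2d1a in B6 Tfh, and every TC library was below every B6 library for Cd48.

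Slamf6, Sh2d1a, Slamf7, Slamf1 and Cd84 were higher in Tfh than in Tn in both strains. Of the 8 members, 5 rose and 2 fell in TC and 5 rose and 1 fell in B6. Among all genes tested, 66.1% were called in TC (33.7% higher and 32.4% lower in Tfh) and 70.3% in B6 (36.9% higher and 33.3% lower), so a call alone says little about a member. The median log2 fold change of the members was 0.55 in TC, against -0.01 over all genes, and 1.17 in B6, against 0.02 over all genes. Tfh and Tn did not overlap in CPM for 6 members in TC and 5 in B6, while 70.7% and 63.6% of all genes tested did not overlap. In these bulk samples, fewer cells of a type and less RNA per cell cannot be told apart.

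Slamf6, which encodes the homophilic receptor Ly108, measured 998, 996 and 1234 CPM in TC Tfh and 276, 264 and 286 CPM in TC Tn. In B6 it measured 728, 705, 806 and 782 CPM in Tfh, against 202, 203, 205 and 204 CPM in Tn. No Tfh library overlapped any Tn library. The rise was 3.62-fold in TC (log2 fold change 1.86, SE 0.08, adjusted p = 6.03e-13) and 3.38-fold in B6 (log2 fold change 1.76, SE 0.07, adjusted p = 1.04e-13).

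Sh2d1a, encoding SAP, rose by the same factor in both strains. It stood at 121, 127 and 133 CPM in TC Tfh and at 34.3, 30.3 and 34.1 CPM in TC Tn. In B6 it stood at 162, 191, 168 and 179 CPM in Tfh, against 44.4, 44.3, 44.7 and 44.2 CPM in Tn. The 4 B6 Tn libraries lay close together, and no groups overlapped. The fold was 3.59 in TC (95% confidence interval 3.25 to 3.96, adjusted p = 1.3e-13) and 3.59 in B6 (3.30 to 3.91, adjusted p = 7.54e-15). The ratio of the TC fold to the B6 fold was 0.998, with a 95% confidence interval of 0.876 to 1.14.

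Slamf7, which encodes CRACC, a receptor best known from NK and plasma cells, had the largest fitted fold of the members between Tfh and Tn in both strains, at a low level. It measured 8.69, 15.3 and 8.95 CPM in TC Tfh, against 0.805, 0.921 and 1.91 CPM in TC Tn. In B6 it measured 10.9, 10.1, 6.4 and 12.5 CPM in Tfh, against 2.08, 1.75, 1.59 and 2.03 CPM in Tn. Tfh and Tn did not overlap in either strain. The rise was 8.29-fold in TC (95% confidence interval 5.13 to 13.4, adjusted p = 4.94e-07) and 4.86-fold in B6 (3.30 to 7.14, adjusted p = 9.05e-07). The summed CPM of 6 plasma cell genes was 249.9 to 282 in TC Tfh and 316 to 365 in B6 Tfh, against 62.8 to 77.3 in TC Tn and 69.8 to 77.5 in B6 Tn. Of the 5 tested, 4 rose in TC and 5 in B6, where 33.7% and 36.9% of all genes tested were called higher in Tfh. Among the 5, Sdc1 had counts high enough to test only in Tfh libraries. Irf4 averaged 135 CPM in TC Tfh and 182 CPM in B6 Tfh, against 11.4 CPM in TC Tn and 11.5 CPM in B6 Tn, and Xbp1 95.9 and 107 CPM in TC and B6 Tfh, against 45.5 and 50.7 CPM in TC and B6 Tn. Prdm1 averaged 31.2 CPM in TC Tfh and 28.2 CPM in B6 Tfh, against 9.62 CPM in TC Tn and 9.91 CPM in B6 Tn. Jchain averaged 2.75 CPM in TC Tfh and 10.6 CPM in B6 Tfh, against 3.8 CPM in TC Tn and 2.43 CPM in B6 Tn. Sdc1 averaged 0.800 CPM in TC Tfh and 0.731 CPM in B6 Tfh, against 0.0751 CPM in TC Tn and 0.0271 CPM in B6 Tn, and Tnfrsf17 was at 0 in all groups but B6 Tfh. The part of plasma cells in the Slamf7 result was not tested.

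Slamf1, encoding SLAM itself, measured 54.7, 64.0 and 52.6 CPM in TC Tfh and 28.8, 32.5 and 37.2 CPM in TC Tn. In B6 it measured 68.5, 77.7, 67.4 and 75.5 CPM in Tfh, against 34.9, 31.3, 29.9 and 30.6 CPM in Tn. Tfh and Tn did not overlap in either strain. The rise was 1.61-fold in TC (adjusted p = 4.57e-06) and 2.08-fold in B6 (adjusted p = 1.92e-09).

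Cd84, a homophilic receptor that takes part in T cell contact with B cells, measured 340.3, 352 and 373 CPM in TC Tfh and 240.4, 241 and 258 CPM in TC Tn. In B6 it measured 265, 239.7, 256 and 246 CPM in Tfh, against 166, 147, 142 and 147 CPM in Tn. The rise was 1.34-fold in TC (adjusted p = 3.78e-06) and 1.52-fold in B6 (adjusted p = 4.09e-09). The TC Tn libraries reached into the range of the B6 Tfh libraries.

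The promoters of the 4 receptor genes that rose in both strains are shown because these genes moved together between Tfh and Tn. Each is the RefSeq window from 250 bases before to 50 after an annotated start on chromosome 1 of GRCm38.p6, 5' to 3' on the gene's strand. Capitals mark matches, on either strand, to 4 short motifs: TGANTCA of AP-1, TGTGGT of RUNX factors, CTTTGA of TCF and LEF factors, and AGGAAG of ETS factors, none of which overlapped another.
Slamf6 (chr1:171917212-171917511, plus strand): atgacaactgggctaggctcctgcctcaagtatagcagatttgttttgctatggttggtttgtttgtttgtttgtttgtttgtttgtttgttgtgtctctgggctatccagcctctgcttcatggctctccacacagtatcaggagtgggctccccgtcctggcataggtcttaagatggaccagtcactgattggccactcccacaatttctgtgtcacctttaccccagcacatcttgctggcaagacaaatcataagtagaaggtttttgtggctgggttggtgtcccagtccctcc
Cd84 (chr1:171839447-171839746, plus strand): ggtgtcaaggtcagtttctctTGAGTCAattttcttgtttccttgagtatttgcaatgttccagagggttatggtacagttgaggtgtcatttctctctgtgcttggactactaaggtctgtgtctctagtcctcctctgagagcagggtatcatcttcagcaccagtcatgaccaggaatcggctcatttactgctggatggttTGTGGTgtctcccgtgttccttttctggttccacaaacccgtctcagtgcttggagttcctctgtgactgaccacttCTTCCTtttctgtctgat
Slamf7 (chr1:171648950-171649249, minus strand): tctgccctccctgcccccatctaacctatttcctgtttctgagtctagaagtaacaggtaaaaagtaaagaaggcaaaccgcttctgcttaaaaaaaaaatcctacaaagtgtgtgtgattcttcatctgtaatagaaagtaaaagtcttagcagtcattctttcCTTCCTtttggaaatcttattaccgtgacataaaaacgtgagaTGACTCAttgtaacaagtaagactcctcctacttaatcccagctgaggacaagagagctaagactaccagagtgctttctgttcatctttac
Slamf1 (chr1:171766882-171767181, plus strand): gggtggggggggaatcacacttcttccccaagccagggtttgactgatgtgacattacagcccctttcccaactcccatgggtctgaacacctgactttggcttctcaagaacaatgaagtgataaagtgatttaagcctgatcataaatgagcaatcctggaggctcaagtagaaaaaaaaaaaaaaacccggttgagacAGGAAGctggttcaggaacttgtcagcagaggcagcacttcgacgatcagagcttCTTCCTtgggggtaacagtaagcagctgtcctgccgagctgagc
Counted from the start at 0, the Cd84 window held an AP-1 match at -229 to -223, a RUNX match at -45 to -40 and an ETS match at 32 to 37. The Slamf7 window held an AP-1 match at -42 to -36 and an ETS match at -85 to -80, and the Slamf1 window ETS matches at -49 to -44 and 6 to 11. None of these letters were in the Slamf6 window. Among 32817 RefSeq windows of the same length, 7.81% held the AP-1 motif, 16.8% the RUNX motif, 16% the TCF and LEF motif and 35.4% the ETS motif. A match is a description of letters and not a binding site. The sequences are those of the B6 reference, and TC sequence was not used here. A window was matched for 6 of the 8 members, all but Ly9 and Sh2d1a. The windows of Cd244 and Cd48, neither called higher in Tfh, are not shown but held matches too. That of Cd244 held an AP-1 match at -122 to -116. That of Cd48 held a RUNX match at -76 to -71, a TCF and LEF match at -168 to -163 and an ETS match at 25 to 30. The motifs were thus not confined to the genes that rose.

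Cd48 and Ly9 did not share the rise. Cd48, encoding the GPI-anchored ligand of 2B4 and of CD2, measured 74.6, 83.1 and 80.7 CPM in TC Tfh and 89.4, 89.5 and 91.8 CPM in TC Tn. It fell 1.22-fold there (adjusted p = 0.000109), without overlap. In B6 it measured 138, 147, 130.4 and 133 CPM in Tfh and 134, 127, 135 and 129 CPM in Tn. These overlapped, and the difference was not called (log2 fold change -0.07, SE 0.04, adjusted p = 0.149). With library totals alone as the scaling its sign turned (log2 fold change 0.06, edgeR adjusted p = 0.259).

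Ly9, a homophilic receptor also named CD229, measured 249, 274 and 253 CPM in TC Tfh and 276, 272 and 281 CPM in TC Tn. In B6 it measured 221, 256, 232 and 251 CPM in Tfh and 227, 249.8, 252 and 261 CPM in Tn. Tfh and Tn overlapped in both strains. It was called lower in Tfh, by 1.15-fold in TC (adjusted p = 0.0137) and 1.13-fold in B6 (adjusted p = 0.0135). Both calls ended when libraries were scaled by their totals alone, a choice made after seeing the data (edgeR adjusted p = 0.194 in TC and 0.508 in B6). That scaling moved the median log2 fold change of all genes by 0.11 in TC and 0.13 in B6. With it, 61.4% of all calls in TC and 65.6% in B6 were higher in Tfh, against 51% and 52.6% with TMM. Leaving out TC Tfh 1 or TC Tfh 4 also ended the TC call (adjusted p = 0.108 and 0.109), and leaving out B6 Tfh 1 or B6 Tfh 3 the B6 call (0.0762 and 0.0526).

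Cd244, encoding 2B4, a receptor of NK and other cytotoxic cells, was near the limit of detection. Its counts were 27, 17 and 11 in TC Tfh, 8, 1, 2 and 3 in B6 Tfh, 19, 12 and 36 in TC Tn, and 3, 0, 2 and 0 in B6 Tn. It passed the filter on low counts only through its TC libraries. Between Tfh and Tn a difference was not detectable at this depth, with a fold of 0.828 in TC (95% confidence interval 0.412 to 1.67) and 2.43 in B6 (0.638 to 9.23).

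**Figure D2:**
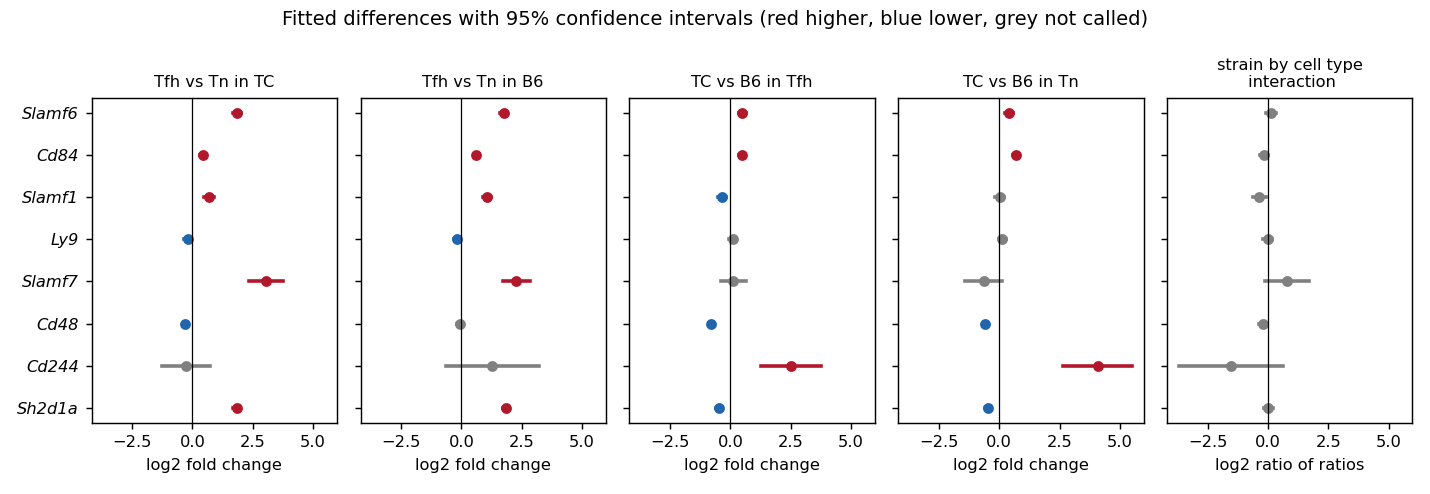
Fitted log2 differences (x axes, same scale) of the 8 members (y axis) in each comparison, with 95% confidence intervals; colours mark members called higher in the first-named group, called lower or not called. Slamf6, Cd84, Slamf1, Slamf7 and Sh2d1a were higher in Tfh in both strains, Cd48 and Sh2d1a were lower in TC in both cell types, and no member was called in the interaction. The strain differences of Cd244 are shown as a description, since it passed the filter only through its TC libraries.

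Between strains the members went in both directions. In Tfh, Slamf6 and Cd84 were higher in TC, and Cd48, Sh2d1a and Slamf1 were lower. In Tn, Slamf6 and Cd84 were again higher and Cd48 and Sh2d1a lower. Cd244 passed the filter only through its TC libraries, where it was high, so it is left out of these counts. The 5 of 7 other members called in Tfh stand beside 49.7% of all genes tested (24.2% higher and 25.5% lower), and the 4 of 7 in Tn beside 52% (25.9% higher and 26.1% lower). Of the 7, 5 did not overlap between strains in Tfh and 5 in Tn, where 49.6% and 55% of all genes tested did not overlap.

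Cd48 averaged 79.5 ± 4.37 CPM in TC Tfh and 137 ± 7.20 CPM in B6 Tfh, a fall of 1.73-fold (95% confidence interval 1.61 to 1.86, adjusted p = 3.39e-09). In Tn it averaged 90.2 ± 1.36 CPM in TC and 131 ± 4.02 CPM in B6, a fall of 1.49-fold (1.39 to 1.60, adjusted p = 8.07e-08). By p-value it ranked 39 in Tfh and 225 in Tn among the 13427 genes tested. The interaction was not called (log2 difference -0.22, adjusted p = 0.126).

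Sh2d1a averaged 127 ± 6.19 CPM in TC Tfh and 175 ± 12.9 CPM in B6 Tfh, a fall of 1.38-fold (95% confidence interval 1.27 to 1.51, adjusted p = 8.3e-06). The Tn means were 32.9 ± 2.25 CPM in TC and 44.4 ± 0.236 CPM in B6, a fall of 1.38-fold (1.26 to 1.52, adjusted p = 1.48e-05). The strains did not overlap in either cell type.

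Slamf6 averaged 1076 ± 137 CPM in TC Tfh and 755 ± 46.8 CPM in B6 Tfh, a rise of 1.42-fold (95% confidence interval 1.28 to 1.57, adjusted p = 1.96e-05). Its Tn levels were 275 ± 10.9 CPM in TC and 203 ± 1.39 CPM in B6, a rise of 1.32-fold (1.19 to 1.47, adjusted p = 0.000127). Cd84 averaged 355 ± 16.8 CPM in TC Tfh and 252 ± 11.3 CPM in B6 Tfh, a rise of 1.40-fold (adjusted p = 1.69e-06). In Tn it averaged 246 ± 10.1 CPM in TC and 151 ± 10.7 CPM in B6, a rise of 1.60-fold (adjusted p = 2.8e-08). For both genes every TC library lay above every B6 library of the same cell type.

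Slamf1 averaged 57.1 ± 6.05 CPM in TC Tfh and 72.3 ± 5.13 CPM in B6 Tfh, a fall of 1.27-fold without overlap (adjusted p = 0.0025). In Tn it averaged 32.8 ± 4.21 CPM in TC and 31.7 ± 2.20 CPM in B6, which overlapped (fold 1.01, 95% confidence interval 0.889 to 1.16, adjusted p = 0.885). The Tfh to Tn ratio in TC over that in B6 was 0.775, with an interval of 0.647 to 0.928 and adjusted p = 0.15, so the strain difference was not shown to differ between Tfh and Tn.

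Cd244 averaged 1.11 ± 0.484 CPM in TC Tfh and 0.188 ± 0.168 CPM in B6 Tfh. In Tn it averaged 1.24 ± 0.643 CPM in TC and 0.0646 ± 0.0762 CPM in B6, the last from 5 counts in all. Every TC library lay above every B6 library of the same cell type. As the gene was tested only because of its TC libraries, these levels are a description, and no fold or p is given. The summed CPM of the 5 NK genes in the table, of 6 listed, was 23.5 to 34.8 in TC Tfh and 25.3 to 44.7 in B6 Tfh. In Tn it was 30.6 to 40.3 in TC and 7.48 to 11.7 in B6. Of the 3 tested, 1 was called higher in TC Tn, beside 25.9% of all genes tested, and the median log2 fold change was -0.06. Gzma, encoding granzyme A, averaged 28.8 CPM in TC Tn and 0.603 CPM in B6 Tn. Eomes averaged 7.36 CPM in TC Tn and 8.41 CPM in B6 Tn, and Klrb1c 0.167 CPM in TC Tn and 0.177 CPM in B6 Tn. Ncr1, which marks NK cells, was at 0 in every group, and the part of other cells in the Cd244 result was not tested.

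Slamf7 and Ly9 were not called between strains. The fold of Slamf7 was 1.09 in Tfh (95% confidence interval 0.768 to 1.55, adjusted p = 0.683) and 0.639 in Tn (0.375 to 1.09, adjusted p = 0.15). Without TC Tn 4, the highest TC Tn library, the log2 fold change in Tn was -1.14 and called (edgeR adjusted p = 0.0292). The fold of Ly9 was 1.07 in Tfh (0.974 to 1.18, adjusted p = 0.219) and 1.09 in Tn (0.995 to 1.20, adjusted p = 0.108). Every TC Tn library was above every B6 Tn library for Ly9, and the difference was called by edgeR with a count minimum of 50 (adjusted p = 0.0477), with only the groups compared in the fit (0.033) and with library totals alone (0.0319).

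Of 3 markers of regulatory T cells, 1 was called higher and none lower in TC Tfh, and 2 were called lower in TC Tn. That was 33.3% called in Tfh against 49.7% of all genes tested, and 66.7% in Tn against 52%. The summed CPM of Foxp3, Ikzf2 and Il2ra was 1459 to 1689.7 in TC Tfh and 1092 to 1443 in B6 Tfh, against 54.3 to 64.9 in TC Tn and 70.4 to 98.7 in B6 Tn. In Tfh, Ikzf2 averaged 1132 ± 61.5 CPM in TC and 816 ± 133 CPM in B6, Foxp3 338 ± 68.3 CPM in TC and 324 ± 42.5 CPM in B6, and Il2ra 66.2 ± 21.6 CPM in TC and 86.5 ± 14.2 CPM in B6. The part of regulatory T cells in the strain differences of the members was not tested.

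No member was called in the interaction of strain and cell type, where 2.32% of all genes tested were called, 0.953% higher and 1.37% lower. At an unadjusted p below 0.05 there were 3 by edgeR, Slamf1, Cd84 and Cd48, each with a lower Tfh to Tn ratio in TC. In the same test Pik3c3 (unadjusted p = 0.0427) ranked 1788 by p among the 13427 genes tested, and Fyn (0.0542) ranked 2040. At least 1788 and fewer than 2040 genes thus passed that cutoff, so these 3 are given as a description. Their shared direction was not compared with that of all genes passing it. DESeq2 and limma voom also called 0 of the 8.

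The order of groups differed between members. For Slamf6 it was TC Tfh, B6 Tfh, TC Tn and B6 Tn from high to low, and neighbouring groups did not overlap. For Sh2d1a it was B6 Tfh, TC Tfh, B6 Tn and TC Tn, again with no overlap between neighbours. Cd84 had the order of Slamf6, but B6 Tfh and TC Tn overlapped. Slamf1 ran from B6 Tfh through TC Tfh to TC Tn and B6 Tn, which overlapped. For Cd48, B6 Tfh and B6 Tn overlapped at the top, with TC Tn and then TC Tfh below them. For Ly9 every neighbouring pair overlapped. For Slamf7 the Tfh groups overlapped, as did the Tn groups, and for Cd244 the TC groups overlapped, as did the B6 groups.

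Divided by the union of annotated exons, the receptors' levels can be set beside each other. In Tfh the level of Slamf6 was 99.3 ± 12.6 CPM per kb in TC and 69.7 ± 4.32 CPM per kb in B6. That of Cd48 was 66.8 ± 3.67 CPM per kb in TC and 115 ± 6.06 CPM per kb in B6. Of the summed level per kb of the 7 receptors in Tfh, Slamf6 took 31.7 ± 2.78% in TC and 22.4 ± 1.61% in B6, and Cd48 took 21.4 ± 0.773% in TC and 37.0 ± 1.60% in B6. In Tn, Slamf6 took 11 ± 0.224% in TC and 8.04 ± 0.0836% in B6, and Cd48 took 33.0 ± 0.344% in TC and 47.3 ± 1.15% in B6. Ly9 took 25.0 ± 1.58% in TC Tfh, 23.3 ± 1.19% in B6 Tfh, 36.4 ± 0.367% in TC Tn and 32.0 ± 1.77% in B6 Tn. The leading receptor by this measure was Slamf6 in TC Tfh, Ly9 in TC Tn and Cd48 in both B6 groups. The order depends on the length used. With the longest transcript in place of the exon union, Slamf6 took 39.2% in TC Tfh and 30.2% in B6 Tfh and led both, with Cd48 at 14% in TC Tfh and 26.5% in B6 Tfh.

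**Figure D3:**
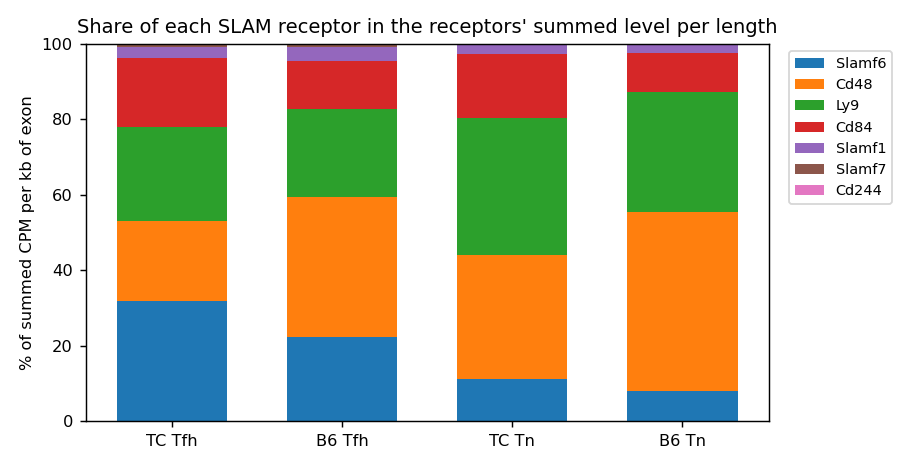
Share of each SLAM receptor (colours) in the receptors' summed level, in percent of CPM per kb of annotated exon (y axis), as the mean over 3 TC or 4 B6 libraries of each group (x axis). Slamf6 took 31.7% in TC Tfh and 22.4% in B6 Tfh, and Cd48 took 21.4% in TC Tfh and 37.0% in B6 Tfh.

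Genes of SLAM signalling beyond the members were read from a list of 19 adaptors and partners, of which 16 were tested. Between Tfh and Tn, 4 rose and 5 fell in TC (median log2 fold change -0.03), and 5 rose and 5 fell in B6 (median -0.03). That was 56.2% called in TC against 66.1% of all genes, and 62.5% in B6 against 70.3%. Fyn, the kinase recruited by SAP, averaged 970.1 ± 8.98 CPM in TC Tfh and 452 ± 12.9 CPM in TC Tn, a rise of 1.99-fold (adjusted p = 2.88e-11). In B6 it averaged 951 ± 30.1 CPM in Tfh and 393 ± 19.9 CPM in Tn, a rise of 2.21-fold (adjusted p = 3.79e-13). Ptpn11, encoding the phosphatase SHP-2, rose 6.10-fold in TC (adjusted p = 1.4e-13) and 5.90-fold in B6 (adjusted p = 1.37e-14). Uvrag, of the Beclin 1 complex, fell 1.39-fold in TC (adjusted p = 3.68e-07) and 1.46-fold in B6 (adjusted p = 5.48e-09). Ncf4, encoding a subunit of the phagocyte oxidase, rose 1.97-fold in TC (adjusted p = 4.21e-08) and 1.85-fold in B6 (adjusted p = 1.52e-08). The adaptor gene Lat2 rose 3.67-fold in TC (adjusted p = 5.55e-06) and 10.9-fold in B6 (adjusted p = 1.43e-09), with 29 counts over B6 Tn.

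Between strains, 2 of those genes were higher and 2 lower in TC Tfh, 25% of them against 49.7% of all genes, and 4 were higher and 2 lower in TC Tn, 37.5% against 52%. In TC Tfh, Lat, the adaptor of T cell receptor signalling, fell 1.30-fold (adjusted p = 0.00115) and the adaptor gene Grb2 fell 1.17-fold (adjusted p = 0.00765). Arhgef7, encoding the exchange factor beta-PIX, rose 1.11-fold (adjusted p = 0.0158) and Becn1, encoding Beclin 1, rose 1.09-fold (adjusted p = 0.03). Fyn was not called in Tfh (adjusted p = 0.743) and was 1.13-fold higher in TC Tn (adjusted p = 0.00945). Becn1 was 1.17-fold higher in TC Tn (adjusted p = 0.000497). Lat2 was 2.66-fold higher there (adjusted p = 0.00161), and Pik3c3, of the Beclin 1 complex, was 1.13-fold lower (adjusted p = 0.0112). The NK cell adaptor genes Sh2d1b1 and Sh2d1b2 (EAT-2) were not tested, with no counts in TC libraries, and with 2 and 0 counts over B6 Tfh and 2 and 1 over B6 Tn.

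Of 6 related receptors and ligands listed, 5 were in the table and 3 were tested. Cd2 and Fcrl1 rose in Tfh in both strains, where 33.7% of all genes tested were called higher in TC and 36.9% in B6. Cd2, whose product binds CD48, averaged 517 ± 26.9 CPM in TC Tfh and 324 ± 2.79 CPM in TC Tn (1.48-fold, adjusted p = 9.12e-07). In B6 it averaged 581 ± 38.9 CPM in Tfh and 391 ± 28.1 CPM in Tn (1.35-fold, adjusted p = 2.75e-06). Between strains Cd2 fell 1.13-fold in TC Tfh (adjusted p = 0.0285) and 1.23-fold in TC Tn (adjusted p = 0.000671). Slamf8, a SLAM relative known from myeloid cells, had 98 counts over TC Tfh and 92 over B6 Tfh, against 1 over TC Tn and 2 over B6 Tn. It passed the filter on low counts only through its Tfh libraries, so no fold is given. Markers of myeloid and dendritic cells, 9 genes, summed to 0.912 to 1.71 CPM in TC Tfh and 2.90 to 11.4 CPM in B6 Tfh, against 4.72 to 5.57 CPM in TC Tn and 7.52 to 12.5 CPM in B6 Tn. These markers did not move together. Itgam made up most of the Tn sums, at a mean of 4.81 CPM in TC Tn and 7.46 CPM in B6 Tn. In Tfh it averaged 0.127 CPM in TC and 0.529 CPM in B6. Lyz2 went the other way in B6, at 5.27 CPM in Tfh and 1.28 CPM in Tn. Fcrl1, a receptor known from B cells, rose 21.6-fold in TC (adjusted p = 4.4e-14) and 20.8-fold in B6 (adjusted p = 9.22e-15). It averaged 34.7 ± 1.43 CPM in TC Tfh and 23.5 ± 3.52 CPM in B6 Tfh, a rise of 1.47-fold (adjusted p = 0.00022).

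Of 14 genes of Tfh contact with B cells, all tested, 11 rose and 0 fell between Tfh and Tn in TC, and 12 rose and 2 fell in B6, with medians of 3.47 and 3.47 on the log2 scale. The share called was 78.6% in TC against 66.1% of all genes and 100% in B6 against 70.3%. These counts, medians and shares include Il21, Il4 and Ascl2, which passed the filter on low counts only through their Tfh libraries. They also include Pdcd1, which encodes PD-1, a marker of the Tfh gate. The cytokine gene Il21 had 13098 counts over TC Tfh and 14880 over B6 Tfh, against 19 over TC Tn and 8 over B6 Tn. The chemokine receptor gene Cxcr5 rose 83.2-fold in TC (adjusted p = 1.52e-12) and 67.8-fold in B6 (adjusted p = 1.76e-13). The costimulator gene Icos rose 6.12-fold in TC (adjusted p = 7.78e-12) and 7.51-fold in B6 (adjusted p = 2.64e-13), and Tnfsf8, encoding CD30 ligand, rose 7.65-fold in TC (adjusted p = 9.34e-12) and 7.03-fold in B6 (adjusted p = 1.56e-12). Between strains, 5 were higher and 3 lower in TC Tfh, 57.1% against 49.7% of all genes. The inhibitory receptor gene Ctla4 rose 2.74-fold in TC Tfh (adjusted p = 0.00298), the cytokine gene Il4 rose 1.90-fold (adjusted p = 0.00031), Il21 rose 1.31-fold (adjusted p = 0.00634), and Cxcr5 fell 1.5-fold (adjusted p = 0.00187). In TC Tn, 3 were higher and 2 lower, 35.7% against 52%. There Cd40lg, encoding CD40 ligand, rose 1.48-fold (adjusted p = 0.000786), Ctla4 rose 2.78-fold (adjusted p = 0.0073), Cxcr5 fell 1.84-fold (adjusted p = 0.00281) and Tnfsf8 fell 1.34-fold (adjusted p = 0.00549). B cells carry SLAM receptors of their own. Their markers, 8 genes, summed to 75.5 to 104 CPM in TC Tfh and 109 to 119.8 CPM in B6 Tfh, against 0.982 to 2.18 CPM in TC Tn and 1.34 to 2.43 CPM in B6 Tn. Cd22 averaged 61.1 CPM in TC Tfh and 95.9 CPM in B6 Tfh. The part of B cells in the member results was not tested.

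Differences between strains were spread over the chromosome region around the cluster, in both directions. Of 89 other genes starting inside the cluster or within 1 Mb of it, 40 were tested. In Tfh 15 were higher and 17 lower in TC, 80% against 49.7% of all genes tested, with a median log2 fold change of -0.06. In Tn 14 were higher and 11 lower, 62.5% against 52%, with a median of 0.11. Of the 25 called in both cell types, 12 were higher in both, 11 lower in both and 2 went opposite ways. These counts, shares and medians include Itln1 and B930036N10Rik, which passed the filter only through TC libraries. Itln1 was called higher in TC Tfh, and B930036N10Rik in TC in both cell types. As that filter favours such calls, they are a description and not a test. Ufc1, of the UFM1 conjugation pathway, fell 1.43-fold in TC Tfh (adjusted p = 9.83e-06). Pigm, of GPI anchor synthesis, rose 1.46-fold in TC Tn (adjusted p = 1.78e-07), and Gm37154 rose 5.67-fold there (adjusted p = 1.33e-07).

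The nearest tested genes on the side of Cd244 were Itln1 and B930036N10Rik, at 23.9 and 55.1 kb. Itln1, encoding intelectin 1, had 52 counts over TC Tfh and 1 over B6 Tfh, and 3 counts over TC Tn and 0 over B6 Tn. B930036N10Rik had 36 counts over TC Tfh and 5 over B6 Tfh, and 48 counts over TC Tn and 9 over B6 Tn. Both genes passed the filter only through TC libraries, so no fold is given. On the side of Slamf6, at 75.3 kb, Vangl2, of planar cell polarity, averaged 2.18 ± 0.594 CPM in TC Tfh and 7.19 ± 2.17 CPM in B6 Tfh, a fall of 3.29-fold (adjusted p = 8.85e-05). In Tn it fell 5.81-fold in TC (adjusted p = 3.72e-06). At 129 kb, Copa, encoding a coatomer subunit, averaged 332 ± 4.33 CPM in TC Tfh and 431 ± 9.94 CPM in B6 Tfh, a fall of 1.30-fold (adjusted p = 6.65e-06). In Tn it fell 1.32-fold in TC (adjusted p = 2.65e-06).

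Inside the cluster, 4 other genes were tested, 3 higher and 1 lower in TC in both cell types. Gm10521, annotated between Cd84 and Slamf6 (chromosome 1, 171895664 to 171898237), averaged 42.8 ± 2.10 CPM in TC Tfh and 19.0 ± 3.41 CPM in B6 Tfh, a rise of 2.24-fold (adjusted p = 2.46e-07). Among Tn libraries the means were 43.8 ± 4.11 CPM in TC and 11.1 ± 0.646 CPM in B6, a rise of 3.84-fold (adjusted p = 5.14e-10). The 1 that was lower, Gm37065, named here after its values were seen, overlaps Slamf6 by 1842 bp on the opposite strand. It averaged 1.74 ± 0.150 CPM in TC Tfh and 2.94 ± 0.413 CPM in B6 Tfh, and 3.93 ± 0.150 CPM in TC Tn and 5.59 ± 0.550 CPM in B6 Tn.

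**Figure D4:**
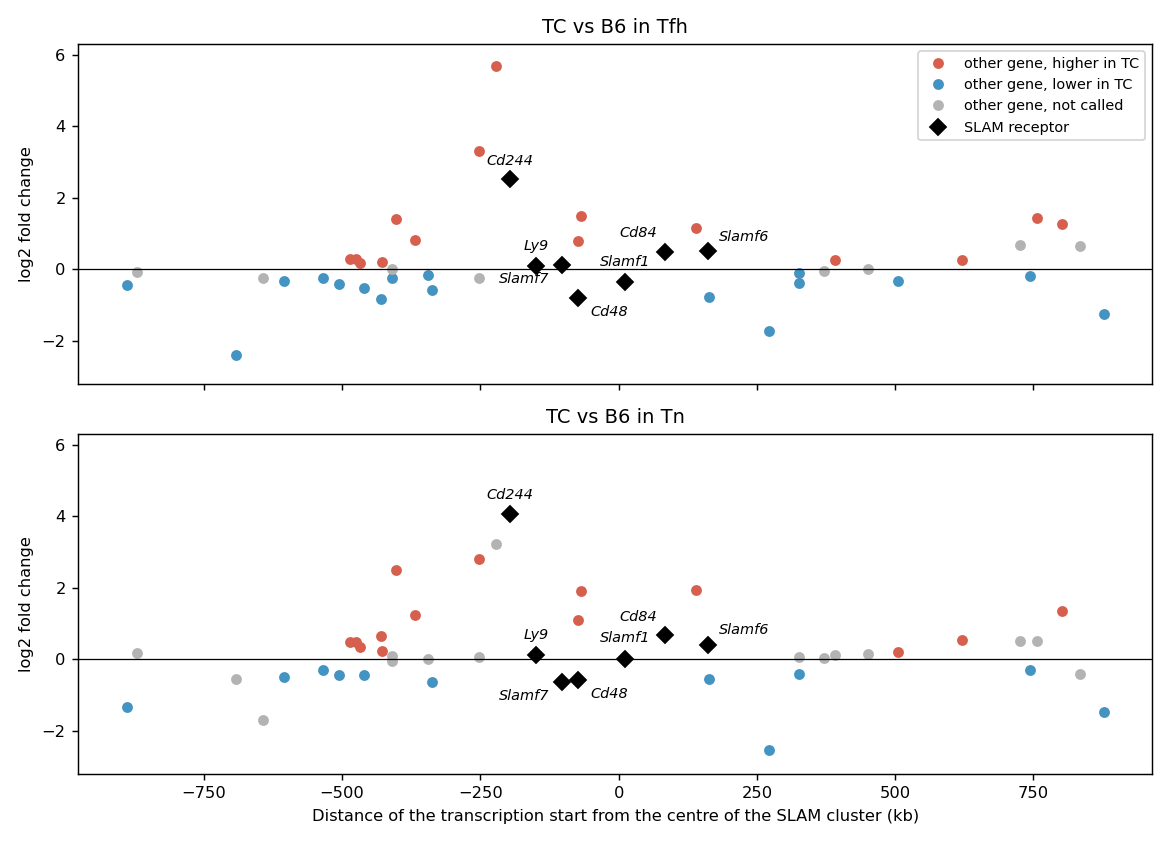
Log2 fold change of TC over B6 in Tfh (top) and Tn (bottom) for tested genes within 1 Mb of the SLAM cluster on chromosome 1, by the distance of each gene's start from the cluster's centre in kb; diamonds are SLAM receptors and circles other genes. Receptors and neighbours lay on both sides of 0, and the lowest fitted value of the neighbours in Tfh was -2.40. The highest point in Tfh is Itln1, with its 1 count in B6 Tfh. Itln1 and B930036N10Rik are shown as a description, since they passed the filter only through TC libraries.

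Genes whose log2 CPM was most alike to that of each member over the 14 libraries were named from 9329 candidates by Pearson's r. Libraries of a group share cell type and strain, so r mainly measures likeness of the 4 group levels, and it is given as a description. For Slamf6 they were Pla2g6 (0.998), AU020206 (0.998) and Mafg (0.996), and for Sh2d1a Smpdl3a (0.996), Itm2c (0.995) and Samsn1 (0.994). For Cd84 they were Golga2 (0.989), Ftx (0.986) and Zfp61 (0.984). For Cd48 they were Ftl1 (0.985), Arl6ip4 (0.982) and Pnrc2 (0.982). Slamf1 was most like Tgfb3 (0.977), Slc43a1 (0.974) and Tmem154 (0.973), and Slamf7 most like Adap1 (0.976), Bcl2l2 (0.976) and Matn2 (0.975). Ly9 was most like Sart1 (0.953), Sdccag3 (0.944) and Galnt12 (0.942), and Cd244 most like Fbxl20 (0.958), Zbtb41 (0.943) and Ewsr1 (0.928). With Spearman's rho in place of r, only Arl6ip4 for Cd48 and Fbxl20 and Zbtb41 for Cd244 were again among the 3 most alike. Among the members themselves r was highest between Slamf1 and Sh2d1a (0.955) and lowest between Cd48 and Cd244 (-0.854).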

How the data were processed

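Spleens of 7 mice gave 14 libraries, each mouse 1 of sorted Tfh and 1 of sorted Tn. RNeasy RNA and a TruSeq Stranded preparation were used, per the labels' protocols. The authors deposited raw read counts per gene symbol and library. STAR 2.7 alignment to mm10 and DESeq2 are named, per the submitters' processing notes. How reads were assigned to genes, with which annotation and strand setting, is not given in the sources here. The genome is that of B6, and no correction was made for TC sequence that differs from it. For Tn samples the titles and cell type were followed, since their source label names Tfh.

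CPM was computed from the counts and library totals. Tests used genes kept by filterByExpr (count minimum 10), TMM scaling and the robust quasi-likelihood test of edgeR 4.0.16 in R 4.3.3, with 4 group means and no block, and Benjamini-Hochberg adjustment over 13427 genes in each of 5 comparisons. The interaction is the Tfh to Tn ratio of TC divided by that of B6. DESeq2 1.42.0 and limma 3.58.1 (voom) were alternatives, beside other scalings, filters, the mouse as a block and each library left out. The code was tested on simulated counts. Within groups, pairs of libraries differed beyond counting noise, with a chi-square of 5.31 to 20.3 for each degree of freedom, so none was treated as a duplicate. Tfh and Tn with the same number in a strain are taken as 1 mouse, since extraction was from each mouse, per the labels. Their deviations from the group means correlated at 0.0395 to 0.299 in B6 and 0.207 to 0.257 in TC. The floor of 3 counts covers counting error only.

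Positions, exon lengths and neighbours came from GENCODE M21 on GRCm38, where 24746 symbols matched by name and 617 by synonym, and promoter sequences from RefSeq on GRCm38.p6. The members and the gene lists were chosen with earlier results of these data known. All 8 members are named, as are up to 4 called genes of a list per comparison described with the smallest adjusted p, the 2 nearest tested genes on each side of the cluster, and the 3 genes most like each member among those of at least 5 CPM on average. Not every gene that falls under this rule is reported here.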

Additional observations from a re-analysis of the deposited data

Results flagged for a closer look

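No member was singled out by Dixon's test for outlying libraries (16 sets of 4 values, from B6 groups only) or by the interaction. Genes beside them whose strain difference differed between Tfh and Tn, by edgeR's interaction, were 1 adaptor gene and 5 genes around the cluster. A positive log2 interaction means that TC had the higher ratio of Tfh to Tn. It was -1.57 for the adaptor gene Lat2 (adjusted p = 0.0431), 0.88 for Atf6 (0.0209), -1.50 for Gm20045 (0.0459), -0.78 for Gm10521 (0.00963), -0.54 for Igsf8 (0.00584) and -0.29 for Pigm (0.0437).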

How the results depend on the processing

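Of 890 values, 40 member results under up to 23 alternative settings, 856 kept their direction and their side of the threshold, and 30 of the 40 results did so in every setting run. The count of all genes called in the interaction, 312, was 533 with DESeq2, 580 with the mouse as a random replicate block in voom and 736 with it as a fixed block in edgeR, and 159 (without TC Tn 2) to 344 (without B6 Tfh 2) with 1 library left out. The mouse block changed no member's call. TC against B6 within a cell type could not be fitted with the mouse as a fixed block. With 1 library left out, members called numbered 6 to 7 between Tfh and Tn in TC, 5 to 6 in B6 and 0 in the interaction. Between strains they numbered 6 in Tfh and 5 to 6 in Tn, both with Cd244, which passed the filter only through its TC libraries. All genes called then numbered 8285 to 8905 in TC and 9009 to 9508 in B6 between Tfh and Tn. Between strains they numbered 5860 to 6712 in Tfh and 5999 to 7162 in Tn. Without Cd244 and with all libraries, 5 of 7 members were called between strains in Tfh and 4 of 7 in Tn. Results that turned sign were not called in either setting. On the log2 scale, the Sh2d1a interaction was -0.00 and turned to 0.00736 with DESeq2, 0.00784 with RLE size factors, 0.000183 with the random block and 0.00136 with the fixed block. Cd48 between Tfh and Tn in B6 was 0.0600 with library totals alone. With a library left out, values crossed 0 for the Sh2d1a interaction (-0.0534 to 0.0496), the Ly9 interaction (-0.0541 to 0.0183), Slamf7 between strains in Tfh (-0.169 to 0.283), Slamf1 between strains in Tn (-0.0751 to 0.101) and Cd244 between Tfh and Tn in TC (-0.608 to 0.214). The cause was not tested. Cd244 was not tested at a count minimum of 50. Of 32 member levels per kb, 21 moved by more than their SD with the longest transcript.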
